A study of Homo sapiens with 6 samples.

Results

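A set of 10 genes of the Notch pathway were described across 6 RNA libraries of SW480 cells, an established line from a human colorectal adenocarcinoma. The genes were the ligands JAG1, JAG2 and DLL1, the receptors NOTCH1, NOTCH2 and NOTCH3, and the transcription factors HES1, HES2, HES4 and HEY1. They were chosen by symbol, through the Ensembl identifiers of the count tables, and each of the 10 symbols matched 1 of the 63677 identifiers. Of the 10 genes, 9 had enough reads to be tested and HEY1 did not.

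Notch signalling passes between cells that touch. A ligand of the Jagged or Delta-like kind on one cell binds a Notch receptor on its neighbour, the receptor is cut by ADAM proteases and gamma-secretase, and its intracellular domain enters the nucleus, where it joins the DNA-binding protein RBPJ and a Mastermind coactivator. HES and HEY genes, which encode basic helix-loop-helix repressors, are the best known targets of this complex, and in the intestinal epithelium Notch activity keeps progenitors dividing and holds back the secretory lineages.

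The study asked which transcripts change when POU5F1B, a retrogene copy of the pluripotency gene POU5F1 (OCT4), is overexpressed in colorectal cancer cells. SW480 cells carried a lentiviral vector for either GFP, as a control, or POU5F1B, in both cases behind a doxycycline-inducible promoter, and all 6 libraries (3 GFP and 3 POU5F1B) came from cells kept in 1 µg/mL doxycycline for 72 h. Both groups thus had a vector and the drug, and uninduced cells are not analysed here. The study describes its cell experiments in general as repeated independently, but for these libraries the sources used here do not say whether replicates were separate cultures, so p-values measure the spread between these libraries, which may be technical.

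Depth ranged from 10767947 to 12787637 counts per library, so that 3 counts, used here as the floor of detection, stood for 0.235 to 0.279 CPM (the count per gene scaled to a common library size by TMM). POU5F1B checked the labels, with 6, 5 and 1 counts in GFP replicates 1, 2 and 3 and 15027, 11393 and 1458 counts in POU5F1B replicates 1, 2 and 3. It was thus low in every GFP library and high in every POU5F1B library, but 9.22 times lower in POU5F1B replicate 3 than the mean of POU5F1B replicates 1 and 2. Replicate 3 of each group also stood apart across all genes. Replicates 1 and 2 differed by a median absolute log2 value of 0.140 in GFP and 0.163 in POU5F1B cells, against 0.511 and 0.474 between GFP replicate 3 and its replicates 1 and 2, and 0.206 and 0.267 for POU5F1B replicate 3. Each comparison is therefore given over all 6 libraries and over replicates 1 and 2 alone, and replicate 3 is described on its own. The split was chosen with earlier results of these data known, and it keeps the 2 closest libraries of each group. P-values from replicates 1 and 2 leave out the larger spread that replicate 3 adds, and do not measure it.

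All 8 markers of colon carcinoma epithelium had reads in every library, among them the keratins KRT8 and KRT18, and their summed level was 6366 to 9580 CPM in GFP and 7908 to 8930 CPM with POU5F1B. Within this list, CDH1 (E-cadherin) had 33.7, 30.2 and 72.7 CPM in GFP and 164, 159 and 98.3 CPM in POU5F1B replicates 1, 2 and 3. CDX2, an intestinal transcription factor, was not raised in this way, with 27.7, 19.5 and 33.2 CPM against 16.4, 14.6 and 37.05 CPM. EPCAM had 86.8 and 89.4 CPM in GFP replicates 1 and 2 but 519 CPM in GFP replicate 3, and VIL1 (villin) had 23.1 and 14.02 CPM there against 211 CPM. The 6 fibroblast markers summed to 171, 148 and 27.4 CPM in GFP and 15.5, 13.4 and 22.6 CPM in POU5F1B replicates 1, 2 and 3. Within this list COL1A1 had 142, 118 and 16.9 CPM against 6.76, 5.56 and 9.49 CPM. COL3A1, another defining fibroblast gene, had 0 counts in all 6 libraries, and DCN had 0 to 3 counts. LUM went the other way from the sum, with 0, 0 and 34 counts in GFP and 0, 0 and 5 counts in POU5F1B replicates 1, 2 and 3. Markers of endothelium (3 genes) summed to at most 6.53 CPM and those of immune cells (5 genes) to at most 4.25 CPM. These levels moved with the replicate 3 libraries as well as with the groups, and their part in the results on Notch genes was not tested. In bulk RNA, fewer cells that express a gene and less of its RNA per cell cannot be told apart.

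Levels of different genes were compared per length, as RPKM (CPM divided by the length of the exons in kilobases). HES1 led in both groups, with a mean of 61.0 RPKM in GFP and 79.7 RPKM in POU5F1B cells. NOTCH2 followed with 10.1 and 10.9 RPKM. In GFP cells the next were JAG1 (9.68 RPKM), JAG2 (5.15), NOTCH1 (2.63), HES4 (2.04) and HES2 (1.42), and DLL1 (0.247), NOTCH3 (0.237) and HEY1 (0.0710) were last. In POU5F1B cells JAG2 (4.89 RPKM) and JAG1 (4.74) were next to each other, then came HES4 (3.92), HES2 (3.74) and NOTCH1 (3.04), and again DLL1 (0.461), HEY1 (0.137) and NOTCH3 (0.113) were last. In GFP cells the ranges of neighbours in this order overlapped throughout, except between HES2 (at least 1.21 RPKM) and DLL1 (at most 0.319 RPKM). In POU5F1B cells the neighbours were apart at HES1 and NOTCH2, at NOTCH2 and JAG2, at NOTCH1 and DLL1, and at DLL1 and HEY1.

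**Figure D1:**
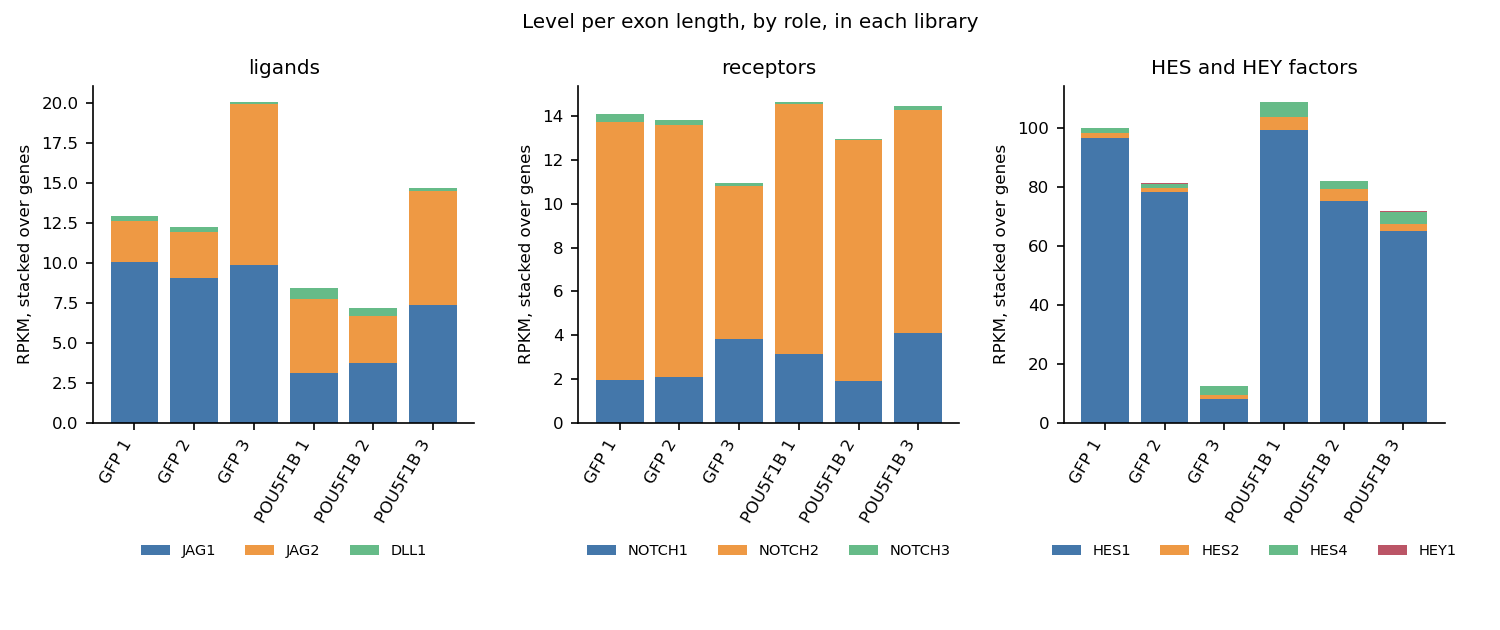
Stacked bars of the summed level (RPKM, linear axes from 0) of the ligands, the receptors and the HES and HEY factors in each of the 6 libraries, 1 panel per role and 1 colour per gene. The receptor sum lay between 10.9 and 14.7 RPKM in every library, whereas the HES and HEY sum was at least 71.7 RPKM in the other 5 libraries and 12.5 RPKM in GFP replicate 3.

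The sum over the 3 receptors was the steadiest of the roles, with 14.1, 13.8 and 10.9 RPKM in GFP and 14.7, 12.99 and 14.5 RPKM in POU5F1B replicates 1, 2 and 3. The ligand sum was 12.9, 12.2 and 20.05 RPKM in GFP and 8.40, 7.17 and 14.7 RPKM in POU5F1B cells, so that replicate 3 was highest within each group. Within it, JAG1 made up 77.9 and 74.2% of ligand RPKM in GFP replicates 1 and 2, 49.3% in GFP replicate 3 and 36.7 to 52.4% in POU5F1B cells. The stacked bars by role show this change in make-up beside the change in total.

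Among the ligands, JAG1 was lower in each POU5F1B library than in any GFP library. JAG1 encodes Jagged1, a ligand that is prominent in colorectal tumours, and lies on the minus strand of chromosome 20 at 10618332 to 10654647 (ENSG00000101384; GRCh37, the build the files use, here and for the genes that follow). It had 1112, 1108 and 1056 counts in GFP and 365, 377 and 823 counts in POU5F1B replicates 1, 2 and 3, or 93.7, 84.4 and 91.9 CPM against 28.7, 34.9 and 68.5 CPM. The 3 GFP libraries were close to each other, including replicate 3, while POU5F1B replicate 3 lay between its own replicates and the GFP libraries. The means were 90.0 ± 4.91 CPM in GFP and 44.1 ± 21.4 CPM with POU5F1B (SD, n = 3). The log2 fold change was -1.13 ± 0.29 (SE), which did not pass the threshold over 6 libraries (limma voom adjusted p = 0.252, unadjusted p = 0.00667). With replicates 1 and 2 alone it was -1.51 ± 0.12 (SE), a 2.84-fold fall (limma voom adjusted p = 3.47e-06). A noncoding gene that overlaps 306 exon bases of JAG1 on the other strand had 0 to 3 counts. The study names JAG1 among secreted proteins that were higher in POU5F1B-high than POU5F1B-low cells, from comparisons in SW480 and LS1034. Its main text does not say in which line, and secreted protein is another measure than the RNA given here.

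JAG2 encodes Jagged2 (ENSG00000184916; chromosome 14, 105607319 to 105635161, minus strand). It had 194, 238 and 739 counts in GFP and 377, 202 and 546 counts in POU5F1B replicates 1, 2 and 3, equal to 16.3, 18.1 and 64.3 CPM and 29.6, 18.7 and 45.5 CPM. Replicate 3 was the highest library of each group and the groups overlapped. The difference of 0.17 ± 0.57 (SE) on the log2 scale was within the spread, with a 95% interval from -1.19 to 1.52 (limma voom adjusted p = 0.939). In replicates 1 and 2 it was 0.46 ± 0.20 (SE; limma voom adjusted p = 0.112). Its sign changed without POU5F1B replicate 3 (-0.15), without GFP replicate 1 (-0.17) and without GFP replicate 2 (-0.12).

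DLL1, the Delta-like 1 ligand (ENSG00000198719; chromosome 6, 170591294 to 170615653, minus strand), was close to the floor. It had 14, 16 and 5 counts in GFP and 33, 20 and 10 counts in POU5F1B replicates 1, 2 and 3, or 1.18, 1.22 and 0.435 CPM against 2.60, 1.85 and 0.833 CPM. Replicate 3 was the lowest library of each group. The log2 difference was 0.85 ± 0.58 (SE) over 6 libraries (limma voom adjusted p = 0.603) and 0.85 ± 0.37 (SE) in replicates 1 and 2 (adjusted p = 0.108). DLL1 shares 370 exon bases with FAM120B on the opposite strand, which had 518 to 644 counts. As the strand setting of the counting was not stated, the DLL1 counts are uncertain.

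**Figure D2:**
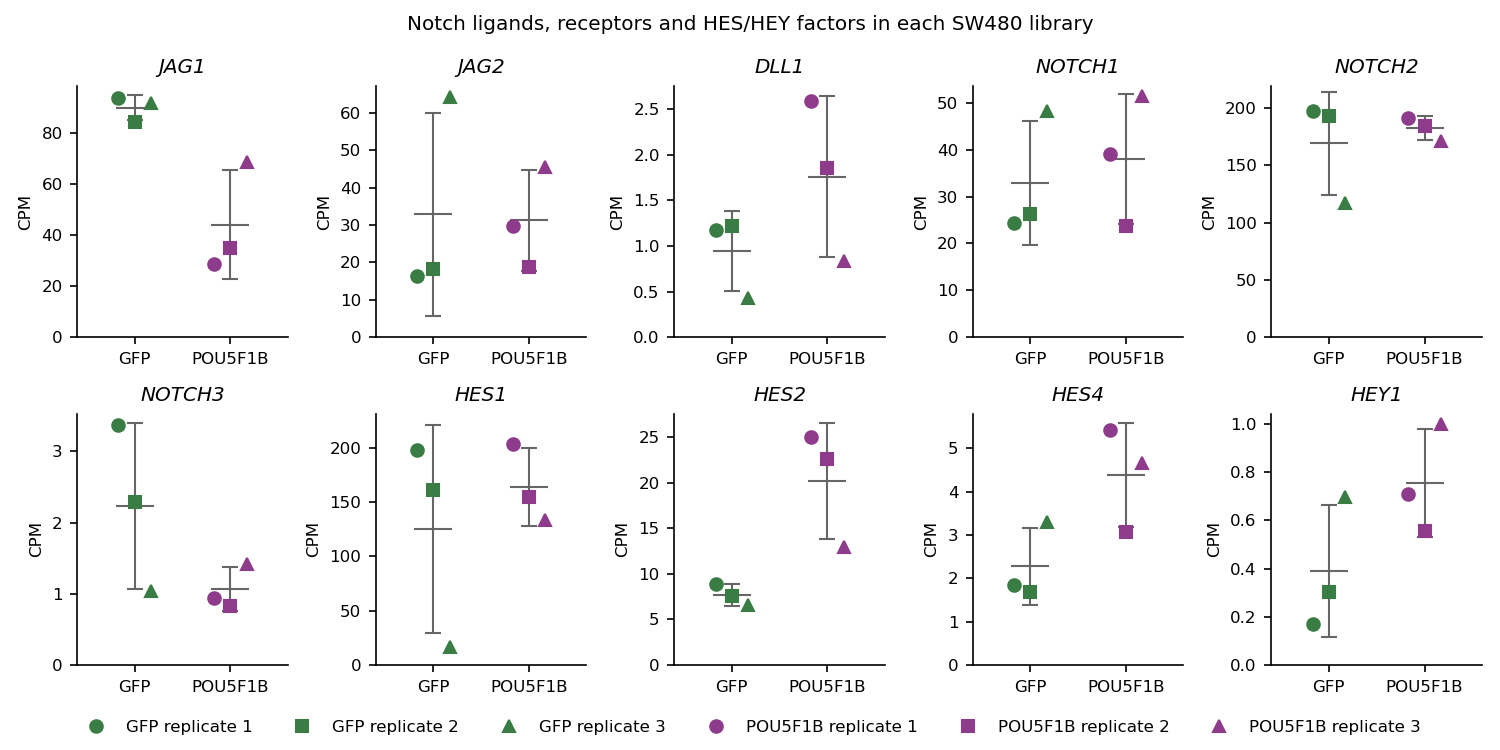
Level of the 10 Notch genes in CPM (linear axes, 1 panel per gene), with a point for each of the 3 GFP and 3 POU5F1B libraries, shaped by replicate, and the mean ± SD of each group. JAG1 and HES2 are the genes without overlap between groups, and the HES1 panel shows GFP replicate 3 at 16.97 CPM against at least 134 CPM in the other libraries.

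Among the receptors, none passed the threshold over 6 libraries with limma voom, and none had an unadjusted p under 0.05. NOTCH2 (ENSG00000134250; chromosome 1, 120454176 to 120643366, minus strand) was the main receptor transcript, with 63.8 to 84.7% of receptor RPKM. It had 198, 193 and 117 CPM in GFP and 191, 184 and 171 CPM in POU5F1B replicates 1, 2 and 3 (2345, 2530 and 1345 counts against 2433, 1988 and 2052 counts). Apart from GFP replicate 3, which was lowest, the libraries lay between 171 and 198 CPM. The log2 difference was 0.14 ± 0.21 (SE, limma voom adjusted p = 0.824) over 6 libraries, and in replicates 1 and 2 it was -0.067 ± 0.079 (SE; adjusted p = 0.559), so that its sign rested on GFP replicate 3. NOTCH2 has partial copies on chromosome 1 that can lose or take up reads, and the copy with a matched identifier, NOTCH2NLA, had 0 counts in all 6 libraries.

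NOTCH1 (ENSG00000148400; chromosome 9, 139388885 to 139440500, minus strand) gave 24.3, 26.2 and 48.2 CPM in GFP and 39.2, 23.7 and 51.4 CPM in POU5F1B replicates 1, 2 and 3 (289, 344 and 554 counts against 498, 256 and 618 counts). Replicate 3 was highest in each group, as for JAG2, and the groups overlapped. The log2 difference was 0.23 ± 0.36 (SE, limma voom adjusted p = 0.834) over 6 libraries, and it was -0.014 without POU5F1B replicate 3. In replicates 1 and 2 it was 0.28 ± 0.20 (SE; limma voom adjusted p = 0.322).

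NOTCH3 (ENSG00000074181; chromosome 19, 15269849 to 15311806, minus strand), a receptor best known from vascular smooth muscle and pericytes, had 9 to 40 counts per library. It had 3.37, 2.29 and 1.04 CPM in GFP and 0.944, 0.834 and 1.42 CPM in POU5F1B replicates 1, 2 and 3. GFP replicates 1 and 2 were above every POU5F1B library, whereas GFP replicate 3 lay among the POU5F1B libraries. The log2 fold change was -0.93 ± 0.51 (SE, limma voom adjusted p = 0.516) over 6 libraries. In replicates 1 and 2 it fell by 1.59 ± 0.40 (SE) on the log2 scale (adjusted p = 0.00995), a call that DESeq2 did not make. The fibroblast marker sum was also highest in GFP replicates 1 and 2, at 171 and 148 CPM. Most of it there was COL1A1 (142 and 118 CPM), whereas COL3A1, DCN and LUM had 0 counts in these libraries. The part of the sum in the level of NOTCH3 was not tested.

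Of the HES and HEY factors, HES1 had by far the most reads, and its level turned on 1 library. HES1 (ENSG00000114315; chromosome 3, 193853937 to 193856521, plus strand) is the classic Notch target of intestinal progenitors. It had 2358, 2113 and 195 counts in GFP and 2596, 1668 and 1606 counts in POU5F1B replicates 1, 2 and 3, or 199, 161 and 16.97 CPM against 204, 155 and 134 CPM. The other 5 libraries held a similar level, and GFP replicate 3 was far below all of them. The means of 126 ± 95.9 CPM and 164 ± 36.2 CPM (SD, n = 3) did not differ beyond this spread, with a log2 difference of 0.97 ± 0.85 (SE), a 95% interval from -1.06 to 3.0 and a limma voom adjusted p of 0.683. In replicates 1 and 2 the difference was -0.014 ± 0.13 (SE), with a 95% interval from -0.30 to 0.27 (adjusted p = 0.946), and without GFP replicate 3 alone it was -0.15.

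The sequence before the start of HES1 is shown because it carries the site by which RBPJ binds its best studied target, and that of HES4 because it was the other member with this site. The letters searched on both strands were TGGGAA, the core read by RBPJ, in the 250 bases before the RefSeq start (GRCh38.p14), where 20.8% of 35116 promoters held it. Of the 10 genes, 8 had a promoter in the table, with HEY1 and DLL1 missing, and 2 of the 8 held the core. In HES1 it stood at -84 to -79 and again at -70 to -65 from the start, and in HES4 at -76 to -71. The first line gives the 250 bases of HES1 (chr3:193853687-193853936, plus strand), and the others give 30 bases around the cores of HES1 (chr3:193853848-193853877, plus strand) and HES4 (chr1:935529-935558, minus strand), all placed on GRCh37, where the GENCODE model of HES4 begins inside its stretch, at 935552, and written 5′ to 3′, with TGGGAA in capitals.
HES1 promoter: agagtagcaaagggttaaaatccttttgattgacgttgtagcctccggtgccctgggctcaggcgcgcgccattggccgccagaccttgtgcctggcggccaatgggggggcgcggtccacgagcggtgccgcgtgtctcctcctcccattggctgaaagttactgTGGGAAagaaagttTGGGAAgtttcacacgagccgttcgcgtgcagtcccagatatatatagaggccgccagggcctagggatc
HES1 site: tactgTGGGAAagaaagttTGGGAAgtttc
HES4 site: gagtgTGGGAAagaatgcggagccgggttc
The 30-base stretches, lined up without gaps, were identical at 19 of 30 positions. Both were cut around the first TGGGAA, so those letters match by construction, and no background identity was taken. A second search took CACGNG, a site bound by HES proteins, which 26.7% of promoters held, and found it in HES1, JAG2 and NOTCH3. The N box, CACNAG, which can overlap CACGNG, was in 32% of promoters and in HES1 and NOTCH3. The octamer ATGCAAAT, read by POU factors, was in 1.63% of promoters and in none of the 8. A match describes letters in this window, and binding was not measured here.

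HES2 was higher in each POU5F1B library than in any GFP library. HES2 (ENSG00000069812; chromosome 1, 6472478 to 6484730, minus strand), a less studied repressor of the same family, had 106, 100 and 75 counts in GFP and 318, 244 and 156 counts in POU5F1B replicates 1, 2 and 3. This equals 8.93, 7.62 and 6.53 CPM against 25.0, 22.6 and 12.99 CPM. As with JAG1, POU5F1B replicate 3 was nearest to the GFP libraries. The means were 7.69 ± 1.20 and 20.2 ± 6.36 CPM (SD, n = 3), and the log2 fold change of 1.34 ± 0.31 (SE) did not pass the threshold over 6 libraries (limma voom adjusted p = 0.230, unadjusted p = 0.00394). In replicates 1 and 2 it rose by 1.52 ± 0.18 (SE) on the log2 scale, or 2.87-fold (adjusted p = 5.16e-05).

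HES4 (ENSG00000188290; chromosome 1, 934342 to 935552, minus strand) gave 22, 22 and 38 counts in GFP and 69, 33 and 56 counts in POU5F1B replicates 1, 2 and 3, or 1.85, 1.68 and 3.31 CPM against 5.43, 3.06 and 4.66 CPM. GFP replicate 3, above POU5F1B replicate 2, made the groups overlap. The log2 difference was 0.98 ± 0.37 (SE, limma voom adjusted p = 0.368) over 6 libraries, and in replicates 1 and 2 it rose by 1.21 ± 0.36 (SE; adjusted p = 0.0243), again not called by DESeq2. HEY1 (ENSG00000164683; chromosome 8, 80674606 to 80680092, minus strand) gave 2, 4 and 8 counts in GFP and 9, 6 and 12 counts in POU5F1B replicates 1, 2 and 3. Its level was 0.168 to 0.696 CPM in GFP and 0.556 to 0.999 CPM with POU5F1B, and the filter on low counts removed it from the test.

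Over all 6 libraries, 0 of the 9 tested genes passed the threshold (adjusted p under 0.05 and a fold change above 2) with limma voom, and 0% of the 14286 genes tested did. With edgeR the count was also 0, and with DESeq2 it was 1, HES2, beside 1.62% of all tested genes. At an unadjusted p under 0.05 there were 3 of 9 with limma voom (HES2 and HES4 higher, JAG1 lower), where the share over all tested genes was 11.9%. Of the 9, 7 were higher and 2 lower in POU5F1B cells, with a median log2 difference of 0.23, against -0.023 over all tested genes. Without overlap there was 1 gene higher (HES2) and 1 lower (JAG1), beside 10.2% and 9.24% of all tested genes. An exact permutation test of 3 against 3 libraries cannot go below a two-sided p of 0.1, so none is given.

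With replicates 1 and 2, 4 of the 9 tested genes passed the threshold with limma voom. HES2 and HES4 were higher, where 3.21% of all tested genes were, and JAG1 and NOTCH3 were lower, where 5.15% were. With DESeq2 on the same libraries JAG1 and HES2 passed, beside 901 of the 14286 tested genes, and NOTCH3 and HES4 did not. The median log2 difference of the 9 genes was 0.28, against -0.0050 over all tested genes. The same 4 genes passed when each library was weighted by its quality, a setting in which 7.54% of all tested genes passed. The weights were 1.74, 2.79 and 0.111 for GFP replicates 1, 2 and 3, and 0.575 for POU5F1B replicate 3. They were estimated from these same data and give GFP replicate 3 little part. This setting is thus no separate support for the fit of replicates 1 and 2. JAG2, DLL1, NOTCH1, NOTCH2 and HES1 did not pass in replicates 1 and 2, and their log2 differences ranged from -0.067 (NOTCH2) to 0.85 (DLL1).

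**Figure D3:**
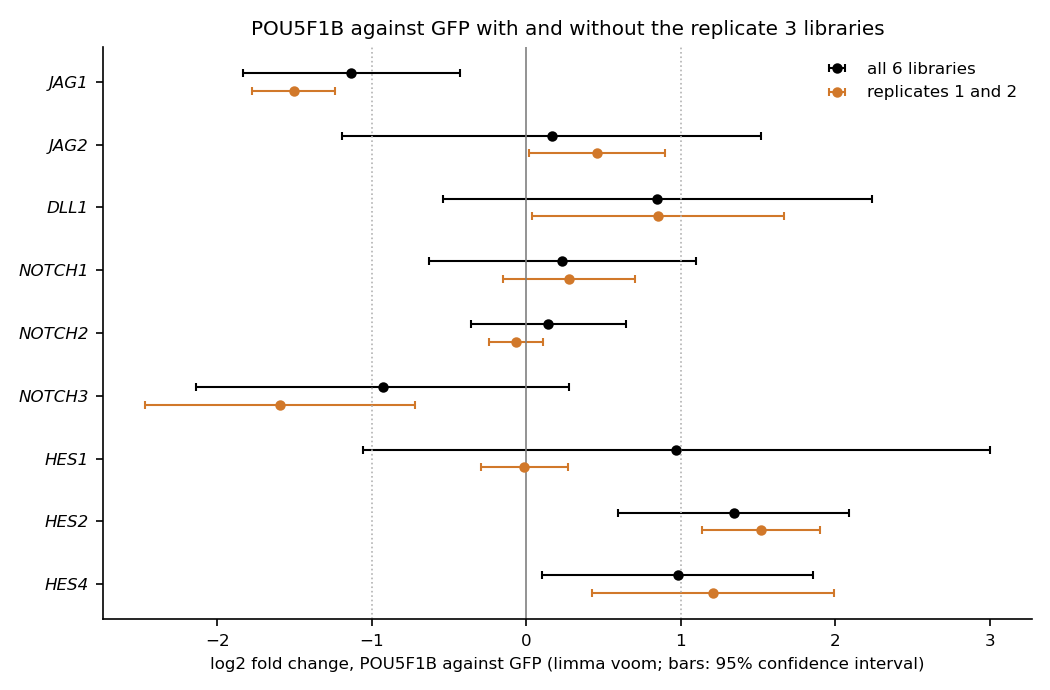
Log2 fold change of POU5F1B against GFP for the 9 tested genes, with 95% intervals from limma voom, over all 6 libraries (black) and over replicates 1 and 2 (orange). JAG1 and HES2 lie on the same side of 0 in both, while the interval of HES1 runs from -1.06 to 3.0 over 6 libraries and from -0.30 to 0.27 over replicates 1 and 2.

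Replicate 3 was then set against replicates 1 and 2 of its own group, which is 1 library against 2 and has no test. The intervals that follow are exact 95% intervals of the count ratio and cover counting error only. In GFP cells, 5 of the 10 genes lay beyond 2-fold. HES1 was 10.5-fold lower in GFP replicate 3 (interval 9.13 to 12.2), NOTCH3 was 2.68-fold lower (1.44 to 5.44) and DLL1 2.76-fold lower (1.06 to 9.11). JAG2 was 3.72-fold higher (3.30 to 4.199). HEY1 was 2.90-fold higher, with an interval (0.882 to 10.1) that includes no difference. Of the 9 tested genes, 1 was thus higher and 3 were lower past 2-fold, beside 12.3% and 9.65% of all tested genes.

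Smaller differences were seen in GFP replicate 3 for NOTCH1, which was 1.90-fold higher (1.70 to 2.14), HES4, 1.88-fold higher (1.18 to 2.97), and NOTCH2, 1.67-fold lower (1.57 to 1.77). JAG1 was at the level of its group in this library, with a ratio of 1.03 (0.961 to 1.11). The ratio of the 2 Jagged ligands hence changed, with JAG2 at 10.1 RPKM beside JAG1 at 9.88 RPKM in GFP replicate 3. As HES1 was low, HES4 reached 23.6% of the summed HES and HEY RPKM, against at most 5.82% in the other libraries.

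In POU5F1B cells, 2 of the 10 genes lay beyond 2-fold in replicate 3. JAG1 was 2.17-fold higher than in POU5F1B replicates 1 and 2 (1.96 to 2.40) and DLL1 was 2.71-fold lower (1.36 to 5.97), beside 3.69% of all tested genes higher and 2.09% lower. HES2 was 1.84-fold lower (1.54 to 2.21), JAG2 1.85-fold higher (1.64 to 2.08) and NOTCH1 1.604-fold higher (1.44 to 1.79). HES1 was 1.36-fold lower (1.28 to 1.44), a log2 difference of -0.41 beside -0.40 between POU5F1B replicates 2 and 1. POU5F1B replicate 3 was the library with the least POU5F1B RNA of its group, at 121 CPM against 1182 and 1056 CPM, and the part of that level in the values of JAG1 and HES2 was not tested.

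**Figure D4:**
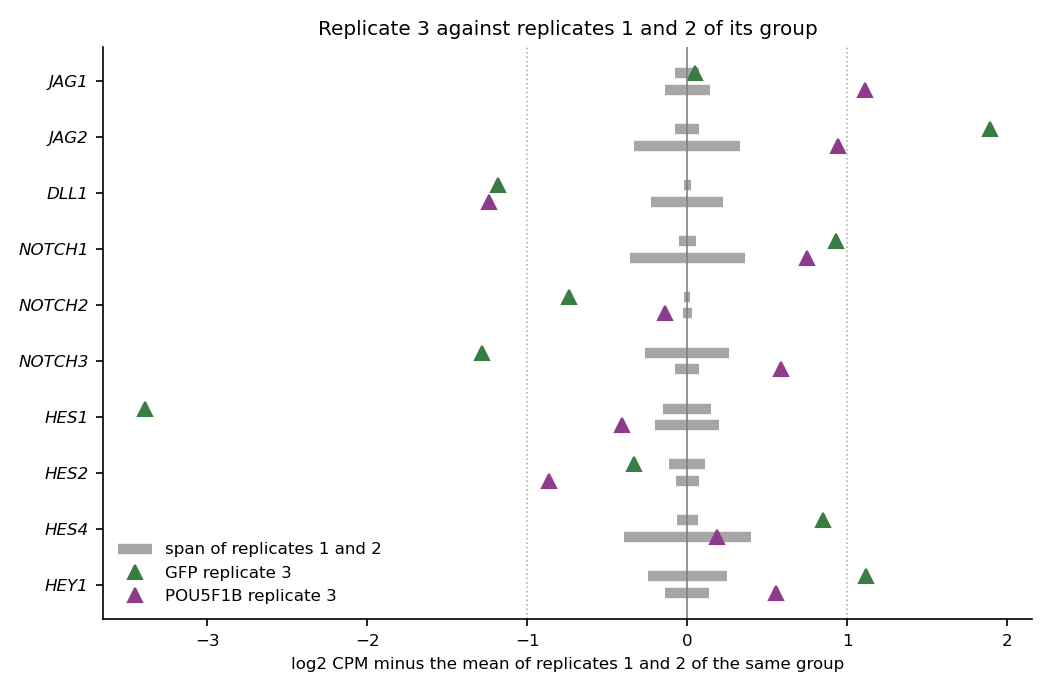
Difference in log2 CPM between replicate 3 and the mean of replicates 1 and 2 for each of the 10 Notch genes. GFP and POU5F1B cells share 1 axis and differ by colour. The grey span is the distance of replicates 1 and 2 from their own mean. HES1 in GFP replicate 3 lies at -3.39, JAG2 at 1.89 in GFP and 0.94 in POU5F1B cells, and JAG1 near 0 in GFP but at 1.11 in POU5F1B cells.

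In both groups the counting interval lay above no difference in replicate 3 for JAG2 and NOTCH1, and below it for DLL1, NOTCH2 and HES1. It included no difference for JAG1 and HES2 in GFP cells, for NOTCH3 and HES4 in POU5F1B cells and for HEY1 in both. For HES1 the sizes were unlike, at -3.39 in GFP and -0.41 in POU5F1B cells on the log2 scale. No test of this difference can be made, as each group has 1 such library. EPCAM and VIL1 were also higher, and the fibroblast marker sum lower (though LUM and DCN higher), in GFP replicate 3 than in GFP replicates 1 and 2, and their part in the level of HES1 was not tested.

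A further 60 genes of the pathway were listed by role, and 50 were tested. None passed the threshold over 6 libraries with limma voom or edgeR, and 6 had an unadjusted p under 0.05 (3 higher, 3 lower), beside 11.9% of all tested genes. With DESeq2 1 passed, MAML2, beside 1.62% of all tested genes. There were 20 higher and 30 lower in POU5F1B cells, and the median log2 difference was -0.070. In replicates 1 and 2, 1 passed as higher (DLL4) and 2 as lower (HEY2 and MAML2), beside 3.21% and 5.15% of all tested genes. The groups did not overlap for 3 genes that were higher (DLK2, ADAM17 and NRARP) and 4 that were lower (HEY2, MAML2, SNW1 and TLE1), beside 10.2% and 9.24% of all tested genes. As shares of the 50 genes, these counts lay near or below those over all genes.

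MAML2, a Mastermind coactivator of the nuclear complex, had 32.7, 32.1 and 25.1 CPM in GFP and 11.95, 13.4 and 16.2 CPM in POU5F1B replicates 1, 2 and 3. It was lower in each POU5F1B library than in any GFP library, at a log2 difference of -1.11 ± 0.20 (SE, limma voom adjusted p = 0.185) over 6 libraries and -1.37 ± 0.15 (adjusted p = 3.21e-05) in replicates 1 and 2. It was the gene of the wider list that passed without GFP replicate 3. The other 13 tested genes of the nuclear complex and its corepressors, RBPJ among them, did not pass in either comparison.

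NRARP, a target gene whose product dampens Notch signalling, had 34.1, 34.3 and 39.5 CPM in GFP and 67.6, 55.5 and 51.6 CPM in POU5F1B replicates 1, 2 and 3. All POU5F1B libraries were above all GFP libraries, and the log2 difference was 0.69 ± 0.16 (SE, limma voom adjusted p = 0.220). In replicates 1 and 2 it was 0.83 ± 0.13 (SE; adjusted p = 0.000384), below the 2-fold limit.

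HEY2, a HEY-family repressor, had 6.91, 5.64 and 10.7 CPM in GFP and 2.20, 2.50 and 4.995 CPM in POU5F1B replicates 1, 2 and 3. The groups did not overlap and replicate 3 was the highest of each. The log2 difference was -1.28 ± 0.40 (SE, limma voom adjusted p = 0.309) over 6 libraries and -1.41 ± 0.28 (adjusted p = 0.00257) in replicates 1 and 2. DLL4, a Delta-like ligand known from endothelium, had 1.10, 1.45 and 2.18 CPM in GFP and 3.30, 3.80 and 2.16 CPM with POU5F1B, with a log2 difference of 0.97 ± 0.37 (SE) over 6 libraries (limma voom adjusted p = 0.376). It rose by 1.44 ± 0.34 (SE) on the log2 scale in replicates 1 and 2 (adjusted p = 0.00726). Endothelial markers summed to 1.22 to 6.07 CPM in GFP and 2.66 to 6.53 CPM with POU5F1B. Nearly all of this was VWF, at 1.13 to 5.98 CPM in GFP and 2.50 to 6.37 CPM with POU5F1B. The other markers were all but absent, with 0 to 2 counts per library for CDH5 and 0 to 1 for KDR.

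In the remaining roles no gene passed in either comparison. The gene with the smallest unadjusted p was NOTCH4 as the other receptor (log2 difference 0.38, limma voom adjusted p = 0.799), MIB2 among the ligand ubiquitin ligases (-0.41, adjusted p = 0.671), POGLUT1 among the receptor glycosyltransferases (-0.20, adjusted p = 0.653) and ADAM17 among the receptor proteases (0.20, adjusted p = 0.531). For the intestinal lineage genes it was GFI1 (0.55, adjusted p = 0.716). ATOH1, which drives the secretory lineage, had 0 counts in all 6 libraries and was not detectable at this depth, as were NEUROG3, OLFM4, HES3 and DLK1.

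**Figure D5:**
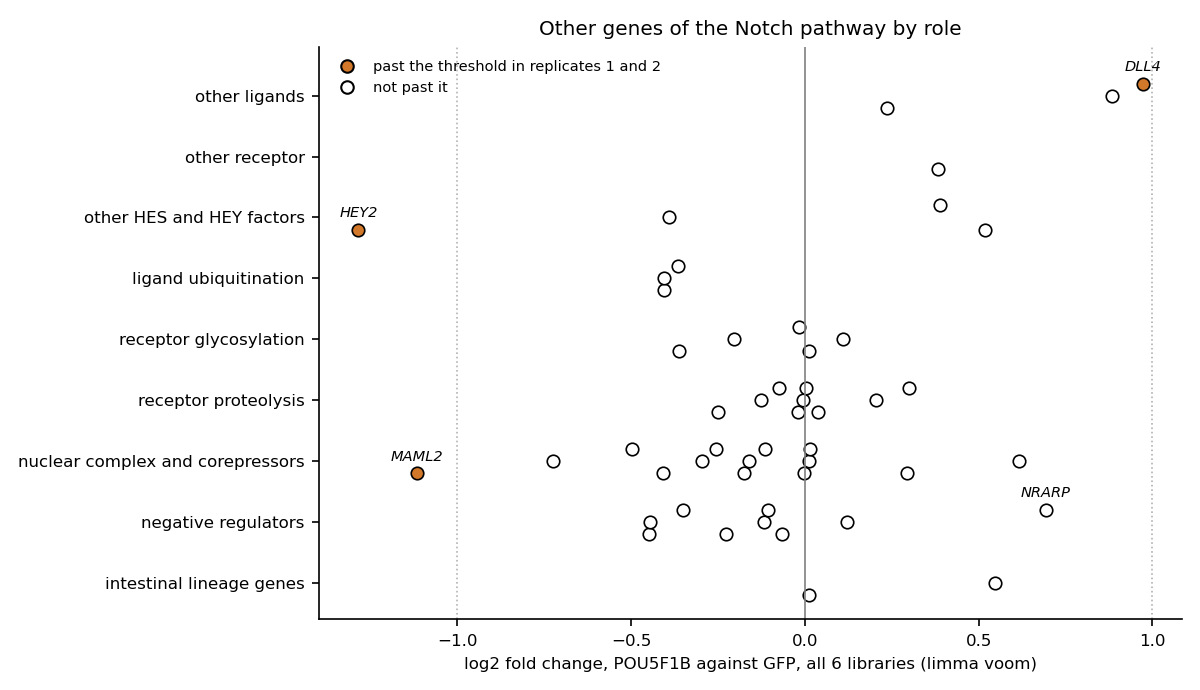
Log2 fold change of POU5F1B against GFP over 6 libraries for the 50 other pathway genes that were tested, arranged by role, with filled points for the 3 that passed the threshold in replicates 1 and 2. Most points lie within 1 of 0, while HEY2 and MAML2 lie below -1.

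Relative to GFP replicates 1 and 2, 7 of the 50 tested genes were more than 2-fold higher and 6 lower in GFP replicate 3, beside 12.3% and 9.65% of all tested genes. For POU5F1B replicate 3 the counts were 4 and 1, beside 3.69% and 2.09%. HES6 and LFNG were picked from these after their values were seen. HES6, a HES-family factor that counteracts HES1, had 10.2, 10.5 and 43.0 CPM in GFP and 11.01, 8.06 and 21.7 CPM in POU5F1B replicates 1, 2 and 3. LFNG (Lunatic fringe, a glycosyltransferase that alters which ligands a receptor answers to) had 7.84, 7.92 and 21.7 CPM in GFP and 6.92, 4.08 and 21.1 CPM with POU5F1B. For both genes replicate 3 was the highest library of each group, as it was for JAG2 and NOTCH1.

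The genes most like HES1 and JAG1 over the 6 libraries were sought by the root-mean-square distance between log2 CPM values centred on each gene's mean. For JAG1 they were CLYBL, an enzyme of mitochondria, at a distance of 0.0997, MAOB (monoamine oxidase B) at 0.137 and CNTFR, a cytokine receptor subunit, at 0.137. MAOB had 58.6, 47.2 and 59.2 CPM in GFP and 21.3, 25.2 and 43.6 CPM in POU5F1B replicates 1, 2 and 3, the same order of groups and the same intermediate POU5F1B replicate 3 as JAG1. CLYBL had 12.3, 11.96 and 12.965 CPM against 4.40, 5.01 and 11.1 CPM. For HES1 the nearest were C2CD4C (0.290), SLC52A1 (0.295) and SOCS3-DT (0.311), none above 2.75 CPM in any library, and C2CD4C and SLC52A1 had 0 counts in GFP replicate 3. The likeness for HES1 thus rests chiefly on that library and on few reads.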

How the data were processed

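The authors deposited a table of whole-number read counts per gene for each of the 6 libraries, with Ensembl identifiers and no normalization. They prepared poly(A) libraries with a stranded kit, mapped reads to hg19 with HISAT2 and counted uniquely mapped reads with featureCounts over an annotation of genes and transposable elements. The strand setting and annotation release are not given in the sources used here, and repeated sequences lose reads. Samples were grouped and numbered by their titles. Symbols were matched to 87.4% of the 63677 identifiers.

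The filterByExpr rule of edgeR 4.0.16 kept 14286 genes, and libraries were scaled by TMM. POU5F1B was compared with GFP by limma 3.58.1 (voom, moderated, two-sided) in R 4.3.3, as the study's methods state, and p-values were adjusted by Benjamini-Hochberg across the tested genes. A gene passed at an adjusted p under 0.05 and a fold change above 2. The study counts SW480 among the settings with enough upregulated genes for an annotation of terms. Why 0 genes passed here over 6 libraries was not tested. Log2 CPM used a prior count of 2, and RPKM used exon lengths of a GENCODE annotation on GRCh37, from which coordinates also come. Promoters are from RefSeq on GRCh38.p14, and those printed were found again on GRCh37. Floors and intervals cover counting error only, because PCR copies could not be told from separate molecules. No libraries agreed within sampling noise, with a chi-square per degree of freedom of at least 4.21. The scripts were tested on simulated data with the spread capped and no outlying library, which checks the code and not its performance on these libraries.

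The members, the wider list, the marker lists and the split into replicates 1 and 2 were chosen with earlier results of these data known. Named were the 10 members, and in each role of the wider list the genes past the threshold over 6 libraries or in replicates 1 and 2, or else the gene with the smallest unadjusted p. For HES1 and JAG1 the 3 nearest genes were also named. Of the 4 endothelial markers, 1 (PECAM1) had no matched identifier. The alternatives were edgeR, DESeq2 1.42.0, sample quality weights, other normalizations and filters, the replicate number as a block, and leaving out each library in turn.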

Additional observations from a re-analysis of the deposited data

How the results depend on the processing

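Over 6 libraries the count of the 10 genes past the threshold stayed at 0 with edgeR, other normalizations, other filters, the replicate block and each library left out in turn. It was 1 with DESeq2 (HES2), 4 with sample quality weights (JAG1, NOTCH3, HES2 and HES4) and 4 with replicates 1 and 2 only. The wider list went from 0 to 1, 4 and 3 under these same settings, and stayed between 0 and 1 when each library was left out, the 1 being MAML2 without GFP replicate 3. All genes past the threshold went from 0 to 232, 1077 and 1194, to 4 with at least 1 count in total, to 1 with the replicate block, and to between 0 and 595 when each library was left out (595 without GFP replicate 3, 5 without POU5F1B replicate 3). In replicates 1 and 2, DESeq2 called 2 (JAG1 and HES2) in place of 4, beside 901 of the 14286 tested genes. At least 10 counts in every library left 3, since NOTCH3 fell under that limit, beside 852 of the 12920 genes then tested. The cause of the changes with DESeq2 was not tested.

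JAG2 changed sign with edgeR (-0.072) and DESeq2 (-0.058), NOTCH2 with quality weights (-0.043), and NOTCH2 (-0.067) and HES1 (-0.014) with replicates 1 and 2. With each library left out in turn, JAG2 ranged from -0.17 to 0.77, NOTCH1 from -0.014 to 0.52, NOTCH2 from -0.11 to 0.28 and HES1 from -0.15 to 1.58. JAG1 (-1.50 to -0.86), NOTCH3, HES2 (1.15 to 1.65), HES4 and DLL1 kept their direction there. Of 142 log2 fold changes of the 9 genes over all alternatives, 122 kept direction and side of the threshold, 9 newly passed and 11 changed sign. Libraries with the same replicate number deviated together with correlations across genes of 0.242, 0.0883 and 0.165. These values cannot decide whether the numbers pair the libraries, as libraries with unlike numbers were not compared. The main fit took no pairing, and the replicate block was an alternative. With the replicate block JAG1 was -1.09 and HES2 1.37, neither past the threshold, and 4 genes still passed in replicates 1 and 2. Depth limits HEY1, DLL1, NOTCH3 and HES4, which had at most 69 counts in any library.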
